A study of Rattus norvegicus with 18 samples.

Results

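The enzymes that make ceramide and turn it into galactosylceramide, sulfatide or sphingomyelin were followed in O4+ and A2B5+ cells of the rat pup brain. Sulfatide is the lipid that the O4 antibody binds. The set was fixed by name as 10 genes, and every probe set was taken whose platform annotation gives exactly 1 symbol among them. Such probe sets were found for 8 of the 10 genes, out of 13811 genes named this way on the arrays. They were Kdsr, Cers2, Degs1, Fa2h, Ugt8, Gal3st1, Sgms1 and Sgms2, with 9 probe sets in all. Sptlc1 and Sptlc2, subunits of the serine palmitoyltransferase that opens the pathway, had no such probe set and were not analysed here.

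The O4+ group holds 4 replicates and the A2B5+ group 5, all sorted by flow cytometry from whole brain dissociates of male pups at postnatal day 7. Each replicate was prepared from a litter of 10 pups, so a replicate is a pool of animals, and no genotype or treatment was varied. A2B5 binds gangliosides on glial progenitors and some neurons, and O4 marks late progenitors and oligodendrocytes. RNA of each replicate was put on 2 Affymetrix array types (array A and array B below), for 18 arrays in total. For array B the labels give whole brain as the source, and the titles were used to assign the population on both types. The values are ratios per probe set, in which 1 is usually the median of the 9 arrays of a type, so a probe set can be compared between arrays but not with another probe set. In sorted cells measured in bulk, fewer cells that carry a transcript and less transcript per cell cannot be told apart.

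Ceramide is built in the endoplasmic reticulum from serine and fatty acyl chains, and the pathway then divides. In oligodendrocytes Ugt8 adds galactose to ceramide to give galactosylceramide, and Gal3st1 adds sulfate to that to give sulfatide. Both lipids are abundant in myelin, often with a very long and 2-hydroxylated acyl chain. The sphingomyelin synthases Sgms1 and Sgms2 use ceramide for a membrane lipid found in nearly all cells. The O4 gate selects cells by the product of Ugt8 and Gal3st1, so the difference in these enzymes is not independent of how the populations were chosen.

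The 4 genes with the largest differences, Ugt8, Gal3st1, Fa2h and Cers2, rose together, and the 250 bases upstream of their RefSeq gene starts (build GRCr8) are shown to let their promoters be compared. They are written 5′ to 3′ on the gene's strand. Capitals mark GGGCGG, the GC box, and CCAAT, the CCAAT box, each on either strand. The windows are chr2:217007168-217007417 (minus strand) for Ugt8, chr14:83094135-83094384 (plus strand) for Gal3st1, chr19:56273481-56273730 (minus strand) for Fa2h and chr2:185579261-185579510 (plus strand) for Cers2.
Ugt8: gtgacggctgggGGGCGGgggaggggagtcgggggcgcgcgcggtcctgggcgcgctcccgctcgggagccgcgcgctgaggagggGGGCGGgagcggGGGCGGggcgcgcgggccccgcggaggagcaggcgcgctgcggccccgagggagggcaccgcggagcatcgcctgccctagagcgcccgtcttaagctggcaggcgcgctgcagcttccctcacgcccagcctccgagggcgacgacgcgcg
Gal3st1: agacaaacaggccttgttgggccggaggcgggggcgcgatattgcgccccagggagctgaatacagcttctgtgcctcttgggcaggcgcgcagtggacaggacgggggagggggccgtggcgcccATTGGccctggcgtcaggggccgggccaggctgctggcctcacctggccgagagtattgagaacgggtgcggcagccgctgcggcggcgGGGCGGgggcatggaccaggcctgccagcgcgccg
Fa2h: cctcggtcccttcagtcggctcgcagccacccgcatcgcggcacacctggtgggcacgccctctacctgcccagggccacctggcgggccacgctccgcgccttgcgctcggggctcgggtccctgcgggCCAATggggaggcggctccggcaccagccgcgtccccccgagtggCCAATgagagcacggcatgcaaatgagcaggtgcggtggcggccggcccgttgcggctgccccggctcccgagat
Cers2: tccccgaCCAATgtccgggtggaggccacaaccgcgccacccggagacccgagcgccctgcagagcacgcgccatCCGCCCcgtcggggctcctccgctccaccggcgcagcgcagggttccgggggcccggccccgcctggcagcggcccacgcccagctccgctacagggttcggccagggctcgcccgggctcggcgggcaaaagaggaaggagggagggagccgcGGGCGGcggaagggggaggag
All 4 windows were rich in G and C, at 81.2% for Ugt8, 72.4% for Gal3st1, 74.4% for Fa2h and 77.2% for Cers2, against a median of 51.2% over 33469 upstream windows of the same length. The GC box matched at 3 places for Ugt8, 1 for Gal3st1, 2 for Cers2 and 0 for Fa2h, and 30.5% of all windows hold it. The CCAAT box matched at 1 place for Gal3st1, 2 for Fa2h, 1 for Cers2 and 0 for Ugt8, and 34.0% of all windows hold it. CANNTG, the E-box bound by basic helix-loop-helix factors, matched at 4 places for Fa2h and 1 for Gal3st1, with 65.5% of all windows holding it. ACAAT and ACAAAG, cores of sites for SOX factors, and TATAAA matched in none of the 4 windows. They occur in 30.0%, 16.3% and 12.9% of all windows. A match or its lack is a description of these letters only.

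In a check of the labels by markers, 8 of 8 oligodendrocyte genes were higher in O4+ cells, and 3 of 4 tested progenitor genes were lower. Opalin is left out of this count, since it was tested only because its 4 O4+ arrays reached a ratio of 1. The remaining progenitor gene, Lhfpl3, differed the other way, by 1.60 ± 0.59, and was not called (adjusted p = 0.0818). Over all 11982 genes tested, 28.7% were called higher and 18.2% lower. Of the other lists, 5 of 7 astrocyte, 8 of 8 microglia, 6 of 7 neuron and 6 of 6 endothelial genes were lower in O4+ cells, and 3 of 4 Schwann cell genes were higher. On array A the mean log2 ratio of the tested genes of a list was -0.81 to -0.16 in O4+ and -0.08 to 1.01 in A2B5+ arrays for astrocytes, and -1.33 to -0.81 and -0.22 to 1.80 for neurons. For microglia it was -1.63 to -0.02 in O4+ and -0.08 to 0.86 in A2B5+ arrays. For Schwann cell genes, on array A Prx, Pmp22 and Egr2, it was 0.78 to 2.21 in O4+ and -0.45 to 0.15 in A2B5+ arrays. Of these, Egr2 was called lower in O4+ cells (-0.98 ± 0.31, adjusted p = 0.0257), and 2 of the 6 listed Schwann cell genes were not tested. The part of these other cells in the differences below was not tested. On array A the median of all tested probe sets was 0.17 higher (log2) in O4+ than in A2B5+ arrays, and on array B the shift was 0.002. O4+ numbers do not match across array types: over 100 shared probe sets, array A replicates 1 to 4 correlated best with array B replicates 3, 4, 1 and 2 (r between 0.801 and 0.937), while all 5 A2B5+ numbers matched. No value below combines arrays of both types within a probe set.

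The 3 enzymes of hydroxylated galactolipid synthesis, Fa2h, Ugt8 and Gal3st1, rose by 4 to 5 log2 units in O4+ cells. After quantile normalization their differences were 3.66 to 4.13. In O4+ cells Cers2 rose several-fold, while Degs1 and Sgms2 rose less and Kdsr and Sgms1 were not called. In all, 6 of 8 tested probe sets passed an adjusted p under 0.05, all of them higher, with no overlap between the populations. On array A 3 of 3 were called higher and 0 lower, where 32.5% and 14.7% of all tested probe sets were. On array B 3 of 5 were called higher and 0 lower, where 9.93% and 13.8% of all were. The O4+ values of these probe sets lay wholly above their A2B5+ values, as they did for 33.3% of all those tested on array A and 12.5% on array B. Over the 8 genes the median difference was 1.77, and over all 11982 genes tested it was 0.124.

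**Figure D1:**
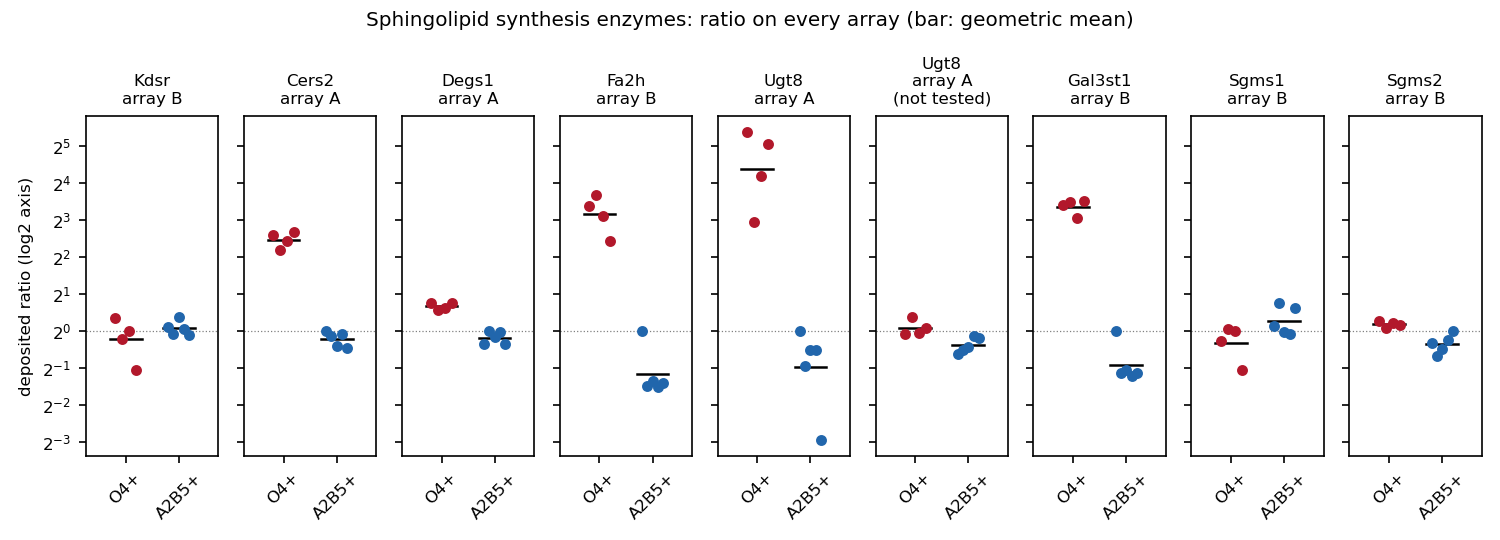
Deposited ratio of each probe set on every array, on a log2 axis, with O4+ arrays in red, A2B5+ arrays in blue and a bar at the geometric mean. Fa2h, Ugt8 and Gal3st1 are the farthest apart, with O4+ ratios of 5.48 or more on these probe sets, and Kdsr and Sgms1 overlap.

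Ugt8, which makes galactosylceramide, showed the largest difference. Its ratio on array A was 42.1, 7.74, 18.2 and 33.4 in O4+ replicates 1 to 4, and 1.00, 0.520, 0.710, 0.704 and 0.130 in A2B5+ replicates 1 to 5. The lowest O4+ array lay 7.74-fold above the highest A2B5+ array, but both populations were spread widely, over 5.44-fold in O4+ and 7.69-fold in A2B5+ arrays. The difference was 5.38 ± 0.63 (log2, standard error of the fit, 41.5-fold, adjusted p = 1.09e-04, n = 4 and 5), and 4.13 after quantile normalization. A further Ugt8 probe set on array A, annotated to the same accession, had ratios between 0.954 and 1.30 in O4+ cells and between 0.654 and 0.910 in A2B5+ cells. It reached a ratio of 1 on only 2 of 9 arrays and was left out of the test. Without that filter its difference was 0.46 ± 0.14 (adjusted p = 0.029). After the pattern shared by low probe sets was removed, its residual SD over the 9 arrays was 0.131, between the medians of low probe sets (0.064) and of the others (0.391).

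Gal3st1, the sulfotransferase that completes sulfatide, had ratios of 10.6, 11.3, 8.31 and 11.5 in O4+ replicates 1 to 4 on array B. In A2B5+ replicates 1 to 5 they were 1.00, 0.460, 0.482, 0.435 and 0.461. The O4+ arrays were close together and all lay far above the A2B5+ arrays, among which replicate 1 stood above the other 4. The difference was 4.27 ± 0.25 (log2, 19.3-fold, adjusted p = 1.4e-05), and 3.66 after quantile normalization.

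Fa2h, which places the 2-hydroxyl group on the acyl chain, was likewise highest in replicate 1 of the A2B5+ cells. Its ratios were 10.4, 12.8, 8.71 and 5.48 in O4+ replicates 1 to 4 on array B, against 1.00, 0.358, 0.395, 0.354 and 0.378 in A2B5+ replicates 1 to 5. The O4+ arrays again lay above all A2B5+ arrays, with replicate 4 the lowest of them. The difference was 4.30 ± 0.36 (log2, 19.8-fold, adjusted p = 8.6e-05), and 3.78 after quantile normalization. For Gal3st1 and Fa2h the A2B5+ replicates 2 to 5 were almost flat, with residual SDs of 0.079 and 0.087, against a median of 0.047 in low and 0.252 in other probe sets of array B. The size of these folds is therefore uncertain. Set against the highest A2B5+ array alone, the O4+ geometric means were 10.3-fold higher for Gal3st1 and 8.93-fold for Fa2h.

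Among the enzymes that make ceramide itself, Cers2, the synthase that attaches very long acyl chains, differed most. Its ratios on array A were 6.10, 4.61, 5.41 and 6.39 in O4+ replicates 1 to 4, and 1.00, 0.920, 0.754, 0.955 and 0.735 in A2B5+ replicates 1 to 5. Both groups were narrow, with log2 means of 2.48 ± 0.21 in O4+ cells (SD, n = 4) and -0.21 ± 0.20 in A2B5+ cells (SD, n = 5). The difference was 2.69 ± 0.15 (6.45-fold, adjusted p = 1.15e-06), and 1.98 after quantile normalization. Degs1, the desaturase that turns dihydroceramide into ceramide, had ratios of 1.71, 1.48, 1.55 and 1.71 in O4+ arrays and 0.794, 1.00, 0.904, 0.988 and 0.787 in A2B5+ arrays. The groups did not overlap, and the difference was 0.85 ± 0.13 (log2, 1.81-fold, adjusted p = 5.86e-04), and 0.57 after quantile normalization. Kdsr, the reductase of the second step, had ratios of 1.29, 0.871, 1.00 and 0.487 in O4+ arrays on array B and 1.08, 0.955, 1.31, 1.03 and 0.940 in A2B5+ arrays. The groups overlapped, and the difference of -0.30 ± 0.26 was not called (adjusted p = 0.41, 95% interval -0.88 to 0.28). It was -0.02 without O4+ replicate 4.

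Of the sphingomyelin synthases, Sgms2 rose by less than any other called enzyme and Sgms1 was not called. Sgms1, which works in the Golgi, had ratios of 0.830, 1.04, 1.00 and 0.483 in O4+ arrays on array B, against 1.11, 1.70, 0.981, 0.946 and 1.56 in A2B5+ arrays. The groups overlapped, and the difference of -0.61 ± 0.27 was not called (adjusted p = 0.142, 95% interval -1.23 to 0.01). Sgms2, a synthase found also at the cell surface, had ratios of 1.21, 1.06, 1.18 and 1.13 in O4+ arrays and 0.797, 0.633, 0.717, 0.845 and 1.00 in A2B5+ arrays. The groups did not overlap, and the difference was 0.54 ± 0.13 (log2, 1.45-fold, adjusted p = 0.0191). This call was lost without O4+ replicate 1 (adjusted p = 0.0546) or O4+ replicate 3 (adjusted p = 0.0542).

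The O4+ arrays did not carry these transcripts equally. On array A, O4+ replicate 2 was the lowest O4+ array for Ugt8, Cers2 and Degs1. It was also the lowest for 10 of 22 probe sets of other pathway genes that were called higher, and for 33.2% of all probe sets called higher. On array B, O4+ replicate 4, which matched array A replicate 2 on the shared probe sets (r = 0.937), was the lowest O4+ array for Fa2h but not for Gal3st1 or Sgms2. It was the lowest for 3 of 5 probe sets of other pathway genes and for 57.9% of all probe sets called higher there. The mean log2 ratio of the tested oligodendrocyte markers on array A lay between 3.85 and 4.30 in O4+ arrays, with replicate 2 at 4.005. In A2B5+ arrays it lay between -0.85 and -0.49. A Cldn11 probe set that reached a ratio of 1 only on O4+ arrays is left out of these means. Control probe sets of array A had a median of 0.46 (log2) in O4+ replicate 2, against 0.02 to 0.09 in the other O4+ arrays. In A2B5+ arrays of that type the median of the controls was lower, at -0.54 to -0.03. The part of these control values in the spread and in the differences was not tested. Without O4+ replicate 2 the Ugt8 difference was 5.86, and without O4+ replicate 4 that of Fa2h was 4.54.

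Among A2B5+ arrays, replicate 1 had the highest ratio of Ugt8, Cers2, Gal3st1 and Fa2h, but Degs1 was highest in replicate 2 and Sgms2 in replicate 5. Taking every probe set with a higher call in O4+ cells, replicate 1 led the A2B5+ arrays for 19.8% (array A) and 30.4% (array B). In replicate 1 Gal3st1 stood at 1.00, against 0.435 to 0.482 in the other 4, and Fa2h at 1.00, against 0.354 to 0.395. Cers2 led only narrowly, at 1.00 against 0.955 in replicate 4. With no overlap between the groups, the highest A2B5+ array is the median of the 9, which explains these ratios of 1.00. The tested factors of the oligodendrocyte lineage were also highest in replicate 1. Sox10 had a ratio of 1.00 in A2B5+ replicate 1 and 0.0743 to 0.283 in the other 4, and Nkx2-2 of 1.78 and 0.114 to 0.347. The mean of the tested lineage factors on array A, Sox10 and Olig1, was 0.02 (log2) in that array and -2.80 to -1.29 in the others, and it was lowest in replicate 5, where Ugt8 was lowest too. In O4+ arrays this mean was between 1.32 and 2.21. The list of oligodendrocyte genes did not follow: without that Cldn11 probe set its mean was -0.58 in A2B5+ replicate 1, within the -0.85 to -0.49 of the others. The progenitor list on array A was not highest there either, at 1.075 in replicate 1 and 1.384 in replicate 4. On array B, however, the tested progenitor gene Lhfpl3 was highest in A2B5+ replicate 1, at a ratio of 1.47 against 0.132 to 0.526 in the others. The part of lineage cells in these A2B5+ values was not tested. Without A2B5+ replicate 1 the difference was 5.62 for Ugt8, 4.49 for Gal3st1 and 4.59 for Fa2h.

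**Figure D2:**
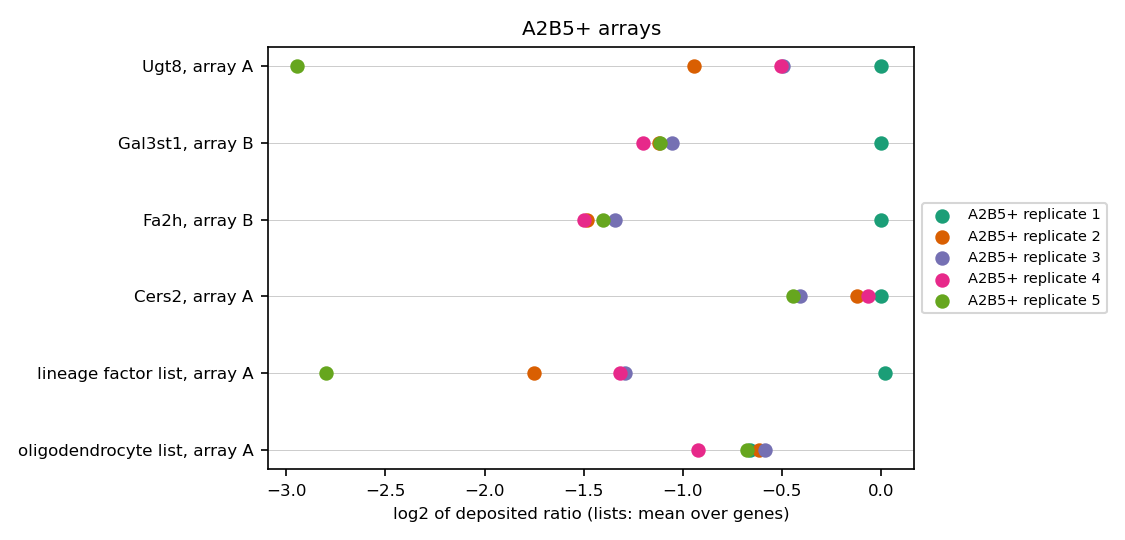
Log2 ratio of Ugt8, Gal3st1, Fa2h and Cers2 in the 5 A2B5+ arrays, coloured by replicate, above the mean log2 ratio of lineage factors (Sox10 and Olig1) and of oligodendrocyte genes on array A. Replicate 1 is highest for the 4 enzymes and the lineage factors, but not for the oligodendrocyte genes. The mean of oligodendrocyte genes shown includes a Cldn11 probe set that reached a ratio of 1 only on O4+ arrays.

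The wider pathway changed in both directions. Of 60 other genes listed by role, 48 were tested, and 22 of them were higher, 7 lower and 1 split between its probe sets, where a gene counts as called if any of its tested probe sets is. Over all 11982 genes the same rule called 28.7% higher, 18.2% lower and 0.401% split. After centring each array on its median the pathway counts were 16 higher and 10 lower, and the shares over all genes 18.8% and 21%. The median difference of the 48 genes was 0.306, against 0.124 over all genes.

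Supply of sulfate and sugar donors leaned one way, with 5 of 6 tested genes higher and 0 lower. Over all genes the shares were 28.7% and 18.2%. Counts by role are of the main fit, and with arrays centred the higher genes of the whole pathway fell from 22 to 16. Slc35b2, which carries the sulfate donor into the Golgi, had ratios between 2.28 and 2.65 in O4+ arrays and between 0.818 and 1.00 in A2B5+ arrays, a difference of 1.48 ± 0.12 (adjusted p = 1.11e-05). Papss1, a synthase of that donor, rose by 1.59 ± 0.20 and Slc35a2, the Golgi carrier of UDP-galactose, by 1.32 ± 0.18. Papss2, a synthase of the same donor, rose by only 0.58 ± 0.21 (adjusted p = 0.0411), with overlap between the groups. Elongation of acyl chains also leaned upward, with 4 of 8 tested genes higher and 0 lower. Elovl1, which extends saturated chains to very long ones, had ratios between 6.20 and 7.44 in O4+ arrays and between 0.859 and 1.00 in A2B5+ arrays, a difference of 2.84 ± 0.12 (2.07 after quantile normalization). Elovl6, which extends palmitate, rose by 2.93 ± 0.38 on array A (2.25 after quantile normalization), with ratios between 2.48 and 7.12 in O4+ arrays and between 0.355 and 1.00 in A2B5+ arrays. Hacd1, a dehydratase of the elongation cycle, rose by 2.26 ± 0.24. Elovl4, needed for the longest chains, differed by 1.01 ± 0.34 and was not called (adjusted p = 0.0625), but it was without O4+ replicate 4 (adjusted p = 0.045).

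**Figure D3:**
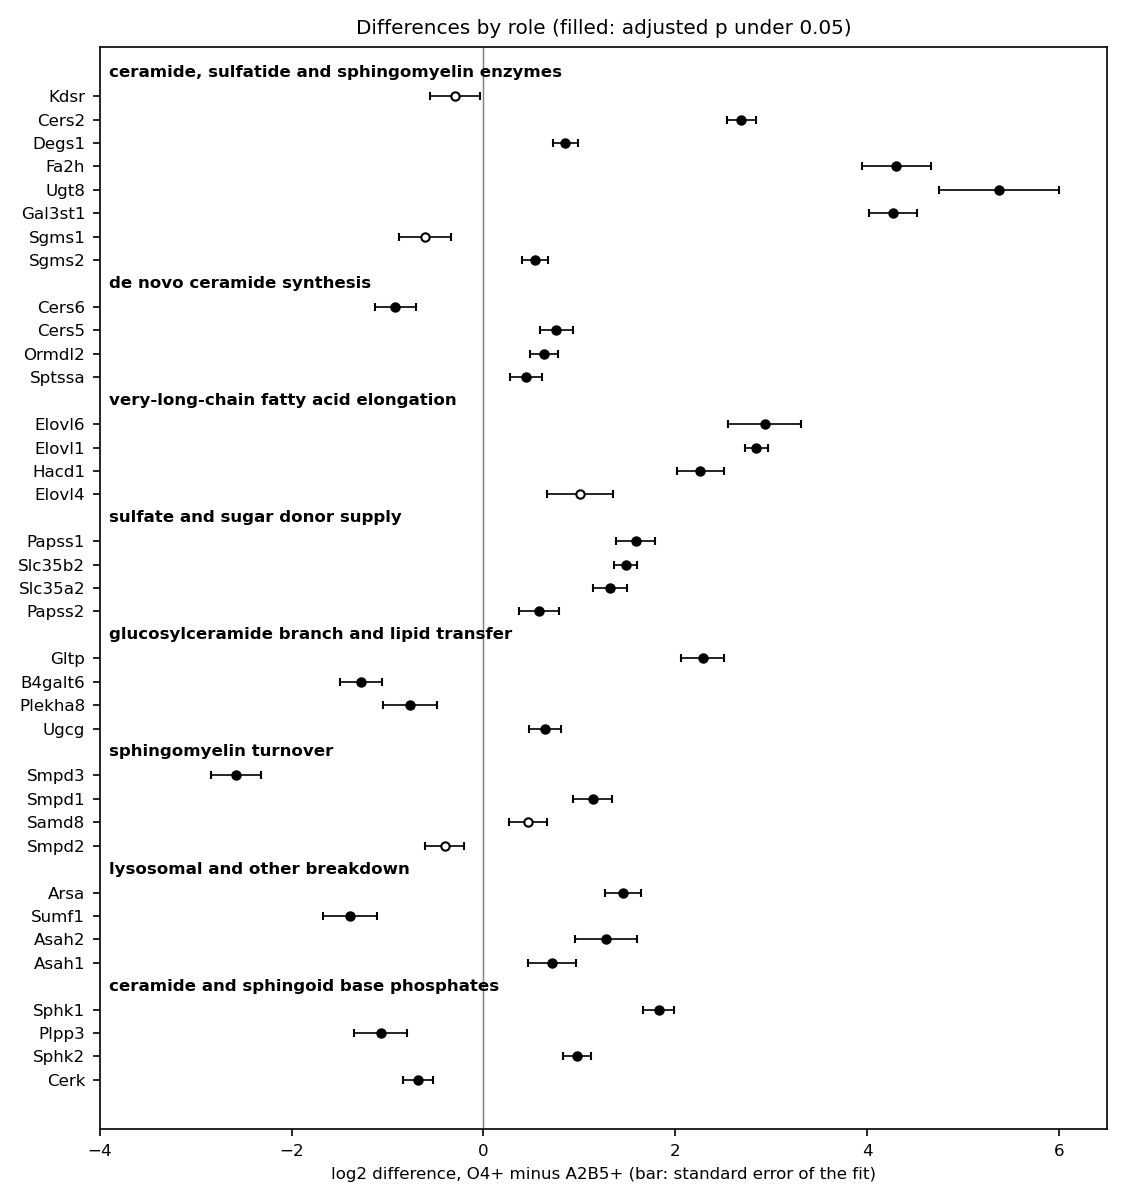
Log2 difference (O4+ minus A2B5+) and its standard error for the 8 tested enzymes and for up to 4 genes of each other role with the largest differences, filled where the adjusted p was under 0.05. Ugt8, Fa2h and Gal3st1 lie farthest to the right, and Smpd3, at -2.58, farthest to the left.

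In ceramide synthesis and its regulation, 3 of 7 other tested genes were higher and 2 lower, where 28.7% and 18.2% of all genes were. Cers5 and Cers6, synthases of ceramides with shorter chains than those of Cers2, differed in opposite directions. Cers5 had ratios between 1.09 and 1.60 in O4+ arrays and 0.639 to 1.00 in A2B5+ arrays, and rose by 0.76 ± 0.17. Cers6 had ratios between 0.702 and 1.00 in O4+ arrays and 0.976 to 1.94 in A2B5+ arrays, and fell by 0.92 ± 0.21 (adjusted p = 0.0061). Ormdl2, of the family that restrains serine palmitoyltransferase, rose by 0.63 ± 0.14, while Ormdl3 of the same family fell by 0.36 ± 0.13 (adjusted p = 0.048). Sptssa, a small subunit of that enzyme, rose by 0.45 ± 0.17 (adjusted p = 0.0473).

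The glucosylceramide branch and lipid transfer proteins moved both ways, with 3 of 6 higher, 1 lower and 1 split. Of all genes, 28.7% were higher, 18.2% lower and 0.401% split. Gltp, a cytosolic glycolipid transfer protein, rose by 2.28 ± 0.22, with ratios of 4.10, 2.24, 3.92 and 3.95 in O4+ arrays and 0.598 to 1.00 in A2B5+ arrays. Ugcg, which makes glucosylceramide, rose by 0.64 ± 0.17 with overlap, a call lost after quantile normalization (0.40, adjusted p = 0.0846). B4galt6, which turns that lipid into lactosylceramide, had ratios between 0.403 and 0.607 in O4+ arrays and 1.00 to 1.92 in A2B5+ arrays, and fell by 1.27 ± 0.22 (adjusted p = 0.0012). B4galt5, which catalyses the same step, rose by 0.51 ± 0.17 (adjusted p = 0.0335), with ratios between 1.04 and 1.40 in O4+ arrays and 0.634 to 1.00 in A2B5+ arrays. Plekha8, a glucosylceramide transfer protein, fell by 0.77 ± 0.28 (adjusted p = 0.0467) on 1 probe set of array A and was called higher on the other.

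Turnover of sphingomyelin gave 1 higher and 1 lower of 5 tested genes, beside 28.7% and 18.2% of all genes. Smpd3, a neutral sphingomyelinase, had ratios of 0.232, 0.363, 0.214 and 0.203 in O4+ arrays, against 1.17, 1.39, 2.07, 2.02 and 1.00 in A2B5+ arrays. All O4+ arrays were below all A2B5+ arrays, and the gene fell by 2.58 ± 0.26 (5.97-fold lower, adjusted p = 4.39e-05). Smpd1, the lysosomal acid sphingomyelinase, rose by 1.14 ± 0.20. Smpd2 differed by -0.40 ± 0.20 (adjusted p = 0.118) and was called lower with arrays centred (adjusted p = 0.0355), with quantile normalization (0.0298) or without O4+ replicate 2 (0.0344). Samd8, a relative of the sphingomyelin synthases, differed by 0.46 ± 0.20 (adjusted p = 0.123) and was called without A2B5+ replicate 2 (adjusted p = 0.0252). Its other probe set differed by 0.10 ± 0.23 (adjusted p = 0.763).

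Genes of breakdown showed 4 of 11 higher and 1 lower, not far from the 28.7% and 18.2% of all genes. Arsa, the arylsulfatase that removes the sulfate from sulfatide, had ratios between 1.80 and 3.20 in O4+ arrays and 0.660 to 1.00 in A2B5+ arrays on array A, and rose by 1.46 ± 0.19 (adjusted p = 2.18e-04). Its probe set on array B rose by 0.86 ± 0.27 (adjusted p = 0.0479), with ratios between 1.06 and 2.81 in O4+ arrays and 0.691 to 1.00 in A2B5+ arrays. Sumf1, which activates sulfatases such as arylsulfatase A, fell by 1.39 ± 0.28, with ratios of 0.454 to 0.707 in O4+ arrays and 1.00 to 2.53 in A2B5+ arrays. The ceramidases Asah2 and Asah1 rose by 1.28 ± 0.32 and 0.72 ± 0.25. A further Asah1 probe set on array A differed by 0.36 ± 0.21 and was not called (adjusted p = 0.18). Galc, which removes galactose from galactosylceramide, differed by -0.11 ± 0.29 and was not called (adjusted p = 0.757). Among genes of ceramide and sphingoid base phosphates, 2 of 5 were higher and 2 lower, where 28.7% and 18.2% of all genes were. The sphingosine kinases Sphk1 and Sphk2 rose by 1.83 ± 0.16 and 0.98 ± 0.14. A further Sphk2 probe set differed by 0.37 ± 0.14, with overlap, and was not called (adjusted p = 0.0533), except with no filter (0.0362) or without A2B5+ replicate 5 (0.0241). The ceramide kinase Cerk and the lipid phosphatase Plpp3 fell by 0.69 ± 0.15 and 1.07 ± 0.28. Of the other two Plpp3 probe sets, 1 fell by 1.01 ± 0.22 and 1 differed by -0.66 ± 0.26 and was not called (adjusted p = 0.0562).

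The smaller of these differences depended on single arrays. Sptssa (7 of 9 arrays, adjusted p = 0.0527 to 0.133) and Asah1 (7 of 9, 0.0522 to 0.0975) were no longer called without any 1 of O4+ replicates 1, 3 and 4 or A2B5+ replicates 1 to 4. Papss2 was lost without O4+ replicate 3 or 4 or A2B5+ replicate 2, 3, 4 or 5 (0.0526 to 0.0908), and the lower call of Plekha8 without any O4+ replicate or A2B5+ replicate 2, 3 or 4 (0.0587 to 0.111). Its higher call was lost without any 1 array but that of A2B5+ replicate 5 (0.0519 to 0.106). Ormdl3 was lost in 7 of 9 cases, all but those without A2B5+ replicates 2 and 5 (0.0692 to 0.119). B4galt5 was lost without O4+ replicate 1, 2 or 4 or A2B5+ replicate 3 (0.0551 to 0.078). Arsa on array B was lost in 7 of 9 cases (0.0614 to 0.102), the exceptions being O4+ replicates 3 and 4, and its difference was 0.58 without O4+ replicate 1. With arrays centred, the calls of Sptssa, Asah1, Papss2 and B4galt5 and the higher call of Plekha8 were lost (adjusted p = 0.22, 0.104, 0.142, 0.155 and 0.206). Quantile normalization lost the same calls (0.267, 0.12, 0.174, 0.21 and 0.271) and that of Ugcg.

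The genes whose arrays most resembled each enzyme were ranked by the root mean square difference between log2 patterns over the 9 arrays, each centred on its own mean. Nearest to Ugt8 on array A were Cnp, an enzyme of myelin (0.485), Edil3 (0.614), Aplp1 (0.690), the tetraspanin Tspan2 (0.755) and Sh3gl3 (0.781), where the median over 9044 other genes was 2.75. On array B Gal3st1 and Fa2h each held rank 3 in the other's list of 4560 genes (0.347). Klhl35 and Larp6 were nearer to both, at 0.242 and 0.317 for Gal3st1 and 0.304 and 0.313 for Fa2h. Next came Nkx6-2, a transcription factor of oligodendrocytes (0.408), and Psd3 (0.439) for Gal3st1, and the tubulin Tubb4a (0.386) and Anks1b (0.393) for Fa2h. Nearest to Cers2 were the choline transporter Slc44a1 (0.164), Nkd1 (0.171), Arhgef10 (0.179), Fnta (0.191) and Hip1r (0.195), where the median was 1.25. All the genes named here were higher in O4+ cells, by 2.46 to 5.44 on the log2 scale. This follows from the ranking, since a pattern near that of an enzyme must hold a similar difference between the populations. The small distances and the shared direction are therefore a description and not a further result.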

How the data were processed

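Biotin-labelled total RNA of 9 sorted replicates was measured on 2 Affymetrix array types. The authors deposited linear ratios per probe set. GCRMA is named, with no version, in the submitters' processing notes, and the step that turned its output into ratios is not given there. On array A 12995 of 15923 probe sets, and on array B 11050 of 15333, had a median of exactly 1 over their 9 ratios, while the remaining medians were under 1. The number of arrays limits precision, and the fit takes litters as independent.

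Samples were grouped by title. Log2 ratios of O4+ and A2B5+ arrays were compared per array type with two-sided tests from lmFit and eBayes (limma 3.58.1, R 4.3.3), over the 13098 and 11136 probe sets that are not controls and have a ratio of at least 1 on at least 4 of 9 arrays. P-values were adjusted by Benjamini-Hochberg over all probe sets of a type and called under 0.05. Differences are O4+ minus A2B5+, and their errors are the fit's standard errors. Without levels or detection calls, low probe sets were judged by residual SD after subtracting the median pattern of those whose median ratio was under 1. The fits were tested on simulated data, drawn independently for each probe set and array, without shifts shared by an array. Changes of 1 log2 unit were recovered in 68.0% of cases on array A and 64.0% on array B. Those of 2 units were recovered in 92.0% and 90.0%.

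The members, lists and tests were chosen with earlier results of these data known. All member probe sets are named. Of other pathway genes, the 4 per role with the largest absolute difference are named, each by its probe set with the largest difference. Galc, B4galt5, Ormdl3 and further probe sets of named genes were added after their values were seen. For Ugt8, Gal3st1, Fa2h and Cers2, the 5 genes with the nearest patterns are named. Marker genes were fixed by list. Sequences come from RefSeq (GRCr8), where all 4 genes matched. Alternatives were centring, quantile normalization, no filter, a median ratio of at least 1, log2(ratio + 0.1), a replicate block and leaving out each replicate.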

Additional observations from a re-analysis of the deposited data

Results flagged for a closer look

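In each group of 4 or 5 arrays, the gap between the highest or lowest array and its neighbour was divided by the group's range on the log2 scale and set against Dixon's critical value. Of 74 groups tested, 8 had an array apart, where chance gives about 1 in 20. The groups come from the same arrays and are not independent, so these figures do not test for an excess. A2B5+ replicate 1 was apart for Gal3st1 (ratio 1.0, gap 0.877 of the range) and Fa2h (ratio 1.0, gap 0.894), both above the other A2B5+ arrays. O4+ replicate 2 was the low array for Papss1 (1.679, gap 0.834) and Gltp (2.239, gap 0.925) on array A. O4+ replicate 4 was low for Hacd1 on array B (2.189, gap 0.835). O4+ replicate 1 was low for Slc35b2 (2.281, gap 0.901). A2B5+ replicate 5 was high for Sphk2 (1.0, gap 0.859) and low for Smpd1 (0.513, gap 0.869).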

How the results depend on the processing

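Counts of called probe sets among the synthesis enzymes were 3 on array A and 3 on array B. They stayed there in every alternative except 2 kinds. With no filter array A had 4, since the further Ugt8 probe set was then tested, and without O4+ replicate 1 or 3 array B had 2. Leaving out 1 replicate number gave 3 on array A throughout, 2 to 3 on array B and 23 to 30 called pathway genes (17 to 22 higher, 6 to 7 lower), against 30 (22 and 7). The pathway count covers both array types, between which O4+ numbers do not match. With the O4+ arrays that match across types left out together, chosen after seeing the data, and the A2B5+ numbers as they are, it was 21 to 30 (15 to 22 higher, 6 to 7 lower). The lowest was without O4+ replicate 4 on array A and O4+ replicate 2 on array B. Centring gave 26 (16 and 10) and quantile normalization 25 (15 and 10). The 6 enzymes called higher kept their direction and call in all alternatives but those named for Sgms2. The largest adjusted p of Ugt8 with 1 replicate left out was 5.81e-04. Pairing of samples was checked by replicate number only. Deviations of same-numbered arrays correlated between 0.02 and 0.305 on array A and between -0.198 and 0.237 on array B. On each type 1 of 4 O4+ arrays correlated best with its own number. O4+ replicates 1, 2 and 4 on array A correlated best with A2B5+ replicates 4, 5 and 3. So did their matches on array B, O4+ replicates 3, 4 and 2. O4+ replicate 3 on array A and its match, replicate 1 on array B, had different best numbers, 3 and 1. Pairing in an order other than that of the numbers was not tested. With the replicate block the counts were 3, 3 and 26 (19 and 6), and the Ugt8 difference was 4.88. By the matches across types, a block by number joins different O4+ and A2B5+ samples on array A and on array B. It therefore cannot be the true pairing on both. The block lost the calls of Sptssa (adjusted p = 0.0645), Papss2 (0.0747), B4galt5 (0.0625), Ormdl3 (0.0587) and Arsa on array B (0.0746), the last also with no filter (0.0698). The uncalled Plpp3 probe set was called with centring, quantile normalization, no filter and the block (0.0121 to 0.0499) and without O4+ replicate 4 or A2B5+ replicate 5 (0.0323 and 0.0147). The uncalled difference of Galc changed sign with the block (0.056) and without A2B5+ replicate 2 (0.001) or 5 (0.056), with a range of -0.285 to 0.056 over single replicates left out. That of the second Samd8 probe set did without A2B5+ replicate 4, with a range of -0.072 to 0.246. Each enzyme had 1 tested probe set per array type, so averaging probe sets within a gene gave no further value.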
